A study of Homo sapiens with 6 samples.

Results

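Mediator is the large protein complex that carries signals from DNA-bound transcription factors to RNA polymerase II. The genes described here are those with a symbol of MED and a number, with or without a final L, plus the kinase-module genes CDK8, CDK19 and CCNC. Of 33 such symbols, 32 were found in both deposited tables, out of 16444 genes in the spike-in-normalized table and 12075 in the FPKM table (fragments per kilobase of transcript, corrected for library size), where they had 41 of 18750 transcripts. CDK8 was not analysed here. RNA came from the human myeloma line KMS-27, labelled as bone marrow and transfected with a control siRNA (siControl, 3 libraries) or with an siRNA that silences Che-1 (siChe-1, 3 libraries). Che-1 is an RNA polymerase II-binding protein encoded by AATF. The labels give neither the siRNA sequences nor the time after transfection, and the 6 libraries stem from 1 cell line. They do not say that the libraries of a group were separate cultures, so the p-values cover the variation among these libraries alone and that may be technical.

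Mediator is built of a head, which touches the polymerase, a middle, a tail, which is bound by many transcription factors, and MED14, the scaffold that joins them. A separable kinase module of cyclin C (CCNC), CDK8 or its paralog CDK19, MED12 or MED12L, and MED13 or MED13L docks on this core. While it is bound the polymerase cannot join, and its kinase phosphorylates transcription factors. MED26 marks the form of the complex that has lost the kinase module and recruits elongation factors. Myeloma cells depend on large enhancers at which Mediator is dense.

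The silenced gene and the cell type were checked first. AATF stood at 93.9, 88.8 and 112 FPKM in the controls and at 14.9, 14.8 and 17.2 after silencing, and fell by 2.57 ± 0.11 on the log2(FPKM + 1) scale (SE, limma adjusted p 0.000117). Of 10 plasma cell marker symbols, 9 were present at a mean of at least 10 normalized reads, with summed FPKM of 7328 to 10394 in siControl and 9074 to 12746 in siChe-1. The other was JCHAIN, whose older symbol IGJ was among the 9. Few markers of other cells reached that mean: 1 of 4 of T cells, 2 of 4 of monocytes and macrophages, 1 of 4 of stroma and endothelium and 0 of 4 of the erythroid line. Summed FPKM was at most 0.764 for the T cell list and at most 1.35 for the monocyte list. Gene reads recovered from the spike-in table numbered 19650740 to 22326044 per library, in 3 siControl libraries and siChe-1 replicates 1 and 2. siChe-1 replicate 3 is not part of that table, and its spike-in reads (379232) lay near those of siControl (351573 to 519573), against 835414 and 1041244 in the other siChe-1 libraries. All statements on the spike-in scale therefore rest on 3 libraries against 2, and those on FPKM on 3 against 3.

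Mediator genes covered a 48.1-fold range of FPKM in siControl, with a median of 15.5 (the plot of levels in each library). CCNC was the highest at 98.9 ± 8.39 FPKM (SD, n = 3), above 91.8% of the genes that average an FPKM of 1 or more. MED13 followed at 59.6 ± 5.86, then MED28 at 48.1 ± 3.73, MED1 at 34.3 ± 1.55 and MED8 at 32.8 ± 1.22. MED1 and MED8 did not differ beyond their spread, nor did MED10 (18.9 ± 1.81), MED20 (18.8 ± 2.48) and MED21 (18.7 ± 1.68). At the low end were MED25 (3.87 ± 1.25), MED11 (3.65 ± 1.01), MED15 (2.66 ± 0.612) and MED12L (2.05 ± 0.189). Libraries of 1 group agreed closely, with a median coefficient of variation of 7.90% in siControl and 8.24% in siChe-1. MED25 and MED11 varied most, by 32.3% and 27.8% in siControl, while CDK19 and MED19, also low, varied least, by 1.61% and 1.71%. Reads recovered per library ran from 67 for MED11 to 15118 for MED13.

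**Figure D1:**
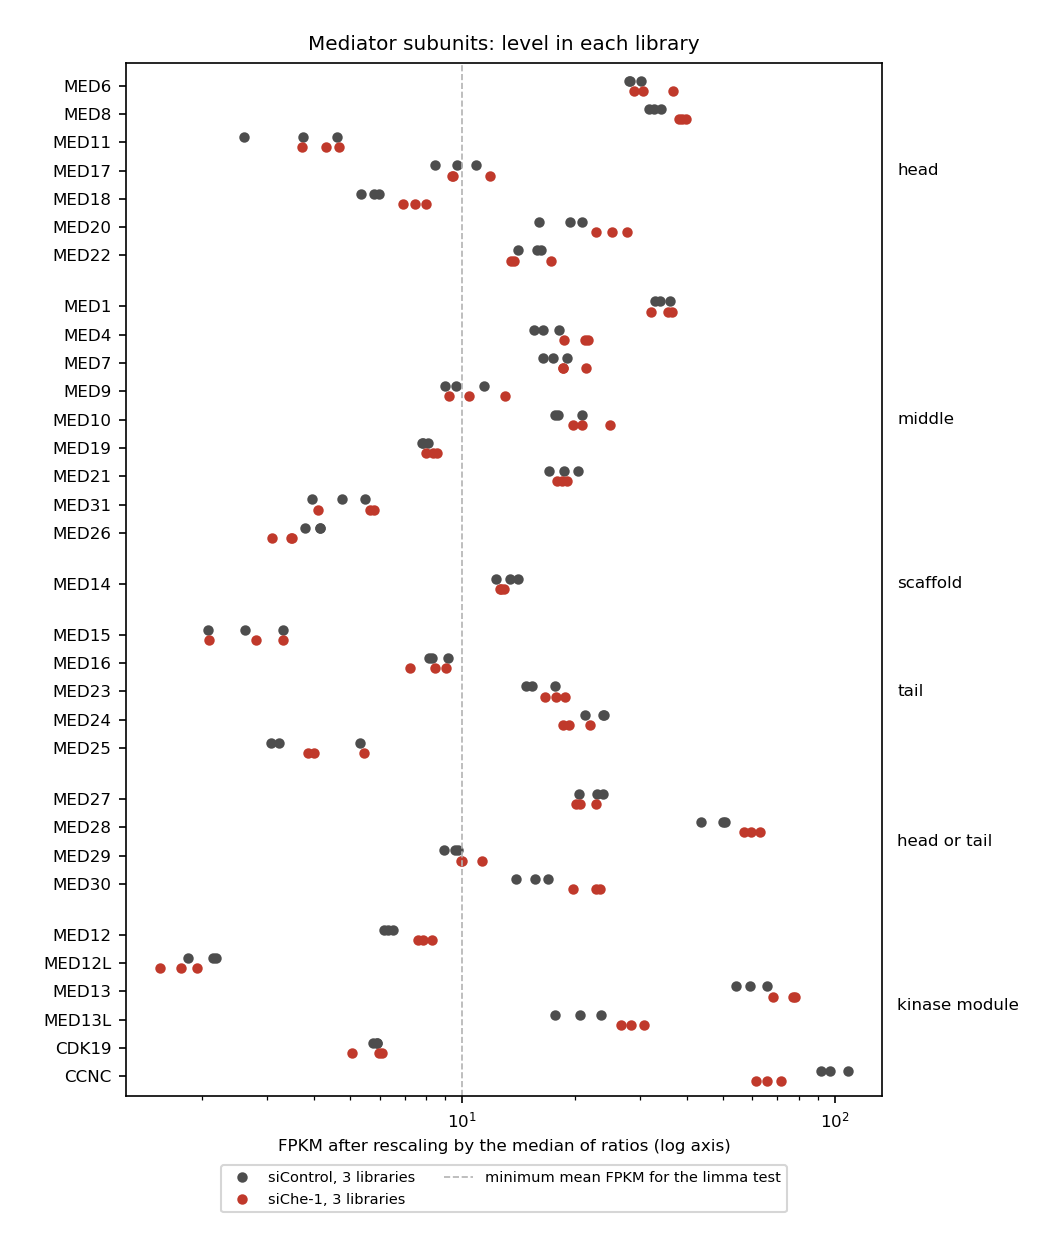
FPKM of 32 Mediator genes in each library on a log axis, after rescaling by the median of ratios. Grey points are the 3 siControl libraries and red points the 3 siChe-1 libraries, and the dashed line is the mean FPKM of 10 used as the minimum for the limma test. The 3 red points of CCNC lie between 61.2 and 71.6, below its grey points at 91.6 to 108, while for most other genes the colours lie close together.

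FPKM differed widely among the genes of the kinase module. Below CCNC and MED13, MED13L stood at 20.7 ± 2.99, and MED12, CDK19 and MED12L were at 6.34 ± 0.174, 5.86 ± 0.0947 and 2.05 ± 0.189 in siControl (SD, n = 3). These 6 genes made up 32.0 ± 1.70% of the summed Mediator FPKM in siControl and 28.8 ± 0.684% in siChe-1. The 9 middle genes gave 22.0 ± 0.239% and 22.3 ± 0.912%, and the 7 head genes 19.0 ± 1.30% and 20.8 ± 0.884%. MED27, MED28, MED29 and MED30, which are placed at the junction of head and tail, gave 15.8 ± 0.345% and 17.7 ± 0.334%. The 5 tail genes gave 8.95 ± 0.0368% and 8.31 ± 0.388%, and MED14 2.20 ± 0.119% and 1.99 ± 0.0502%. The module shares are a description, and no test was run on them. That of the kinase module does not stand for each of its genes. In mean FPKM, CCNC went from 98.9 in siControl to 66.1 in siChe-1, CDK19 from 5.86 to 5.70 and MED12L from 2.05 to 1.75. MED13 went from 59.6 to 74.5, MED13L from 20.7 to 28.6 and MED12 from 6.34 to 7.91.

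Against the spike-ins, every one of the 32 genes was lower in siChe-1. By the adjusted p of the authors' deposited table, 24 of them passed 0.05 as lower and 0 as higher, and none had a positive log2 fold change. The background for these counts was 12591 genes averaging 10 or more normalized reads, of which the authors' deposited table called 63.5% lower and 0.0635% higher, so that the members' count lies not far above what genes in general did. The median log2 fold change in the authors' deposited table was -1.20 over the 32 members, with quartiles of -1.35 and -1.04, and -1.25 over all genes, with quartiles of -1.51 and -0.97. The cause of this common shift was not tested. What the shift reflects cannot be told from these samples, and the labels do not say at which step the spike-ins were added.

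Within that common shift the members ranged from -1.92 to -0.83 in the authors' deposited table. CCNC had the largest fall, from a mean of 5821 to 1535 normalized reads, -1.92 with an adjusted p of 0.000155 in the authors' deposited table. MED26 (-1.65, adjusted p 0.00120), MED12L (-1.64, adjusted p 0.00119) and MED24 (-1.53, adjusted p 0.00142) came next in the authors' deposited table. These 4 genes lie below the lower quartile of all genes. The 8 members not called in the authors' deposited table were the head genes MED11, MED18 and MED20, the middle genes MED4 and MED31, the tail gene MED25, MED30 and MED13L. Their values in the authors' deposited table ran from -1.09 for MED31 to -0.83 for MED30 and MED13L, with adjusted p from 0.0506 to 0.229. By module, medians in the authors' deposited table were -1.05 for the head, -1.25 for the middle, -1.20 for the tail, -1.07 for the 4 genes between head and tail and -1.25 for the kinase module, with MED14 at -1.40.

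**Figure D2:**
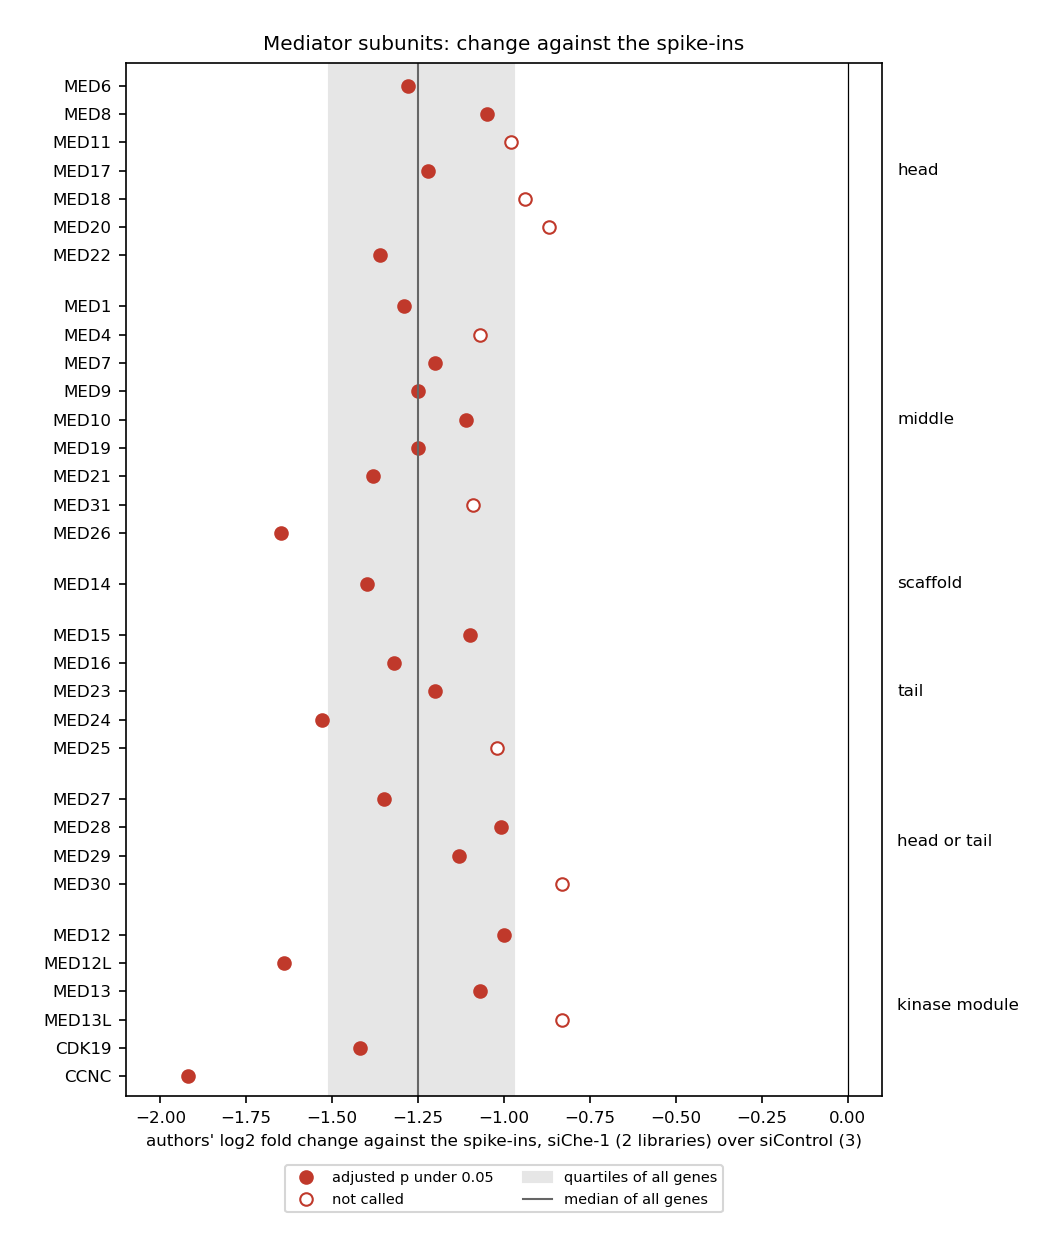
The authors' log2 fold change against the spike-ins, siChe-1 (2 libraries) over siControl (3), for each of 32 Mediator genes. Filled points passed an adjusted p of 0.05, the grey band spans the quartiles of all genes (-1.51 to -0.97) and the vertical line is their median of -1.25. All points are below 0, CCNC is farthest left at -1.92, and MED30 and MED13L are farthest right at -0.83.

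The whole reads behind the authors' means were recovered for each of the 5 libraries, which shows the spread. CCNC had 4583, 6184 and 6694 spike-in-normalized reads in siControl and 1593 and 1477 in siChe-1. MED13L, the paralog of MED13, had 6355, 10013 and 8513 in siControl against 5045 and 4268 in siChe-1. In both genes the siChe-1 libraries lay below all siControl libraries, and siControl replicate 1 was the lowest control. The siChe-1 libraries lay wholly below for 31 of the 32 members, the exception being MED11, and for 89.5% of all 12489 genes. edgeR's quasi-likelihood test called all 32 lower on this scale, beside 84.3% of all genes lower and 0.192% higher. The scale of a library is common to all of its genes, so these 32 calls largely count 1 shift. For each spike-in read there were 39.8, 58.1 and 59.4 gene reads in the controls and 23.5 and 19.9 after silencing. Without siControl replicate 3, edgeR called 21 of the 32 lower, beside 8168 of all 12489 genes. Without siChe-1 replicate 2 the log2 change was -1.87 for CCNC and -0.72 for MED13L, against -1.92 and -0.83 with all 5 libraries. Where a siChe-1 library is left out of the 5, here and below, the lone sample left is assumed to vary like the siControl libraries.

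With the common shift removed, Mediator genes were called in both directions. On the recovered reads with TMM factors, which set the bulk of genes to no change, edgeR's quasi-likelihood test called 3 of 32 lower (CCNC, MED26 and MED12L) and 2 higher (MED30 and MED13L). Of all 12489 genes, 14.8% were called lower and 14.0% higher. On FPKM, 19 of the 32 reached the mean of at least 10 that the limma test required, the other 13 being below it. limma called 1 of these 19 lower (CCNC) and 6 higher (MED8, MED20, MED28, MED30, MED13 and MED13L), beside 15.1% of all 6285 genes lower and 15.1% higher. CCNC, MED30 and MED13L were called on both scales, 9 members on at least 1 and 23 on neither. The median over the members was 0.03 on the TMM scale and 0.14 on the log2(FPKM + 1) scale, against -0.00 over all genes on each. With a minimum FPKM of 1 all 32 were tested, the median was 0.06, and limma called CCNC lower and MED18, MED30 and MED13L higher, beside 13.8% and 13.4% of all genes.

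**Figure D3:**
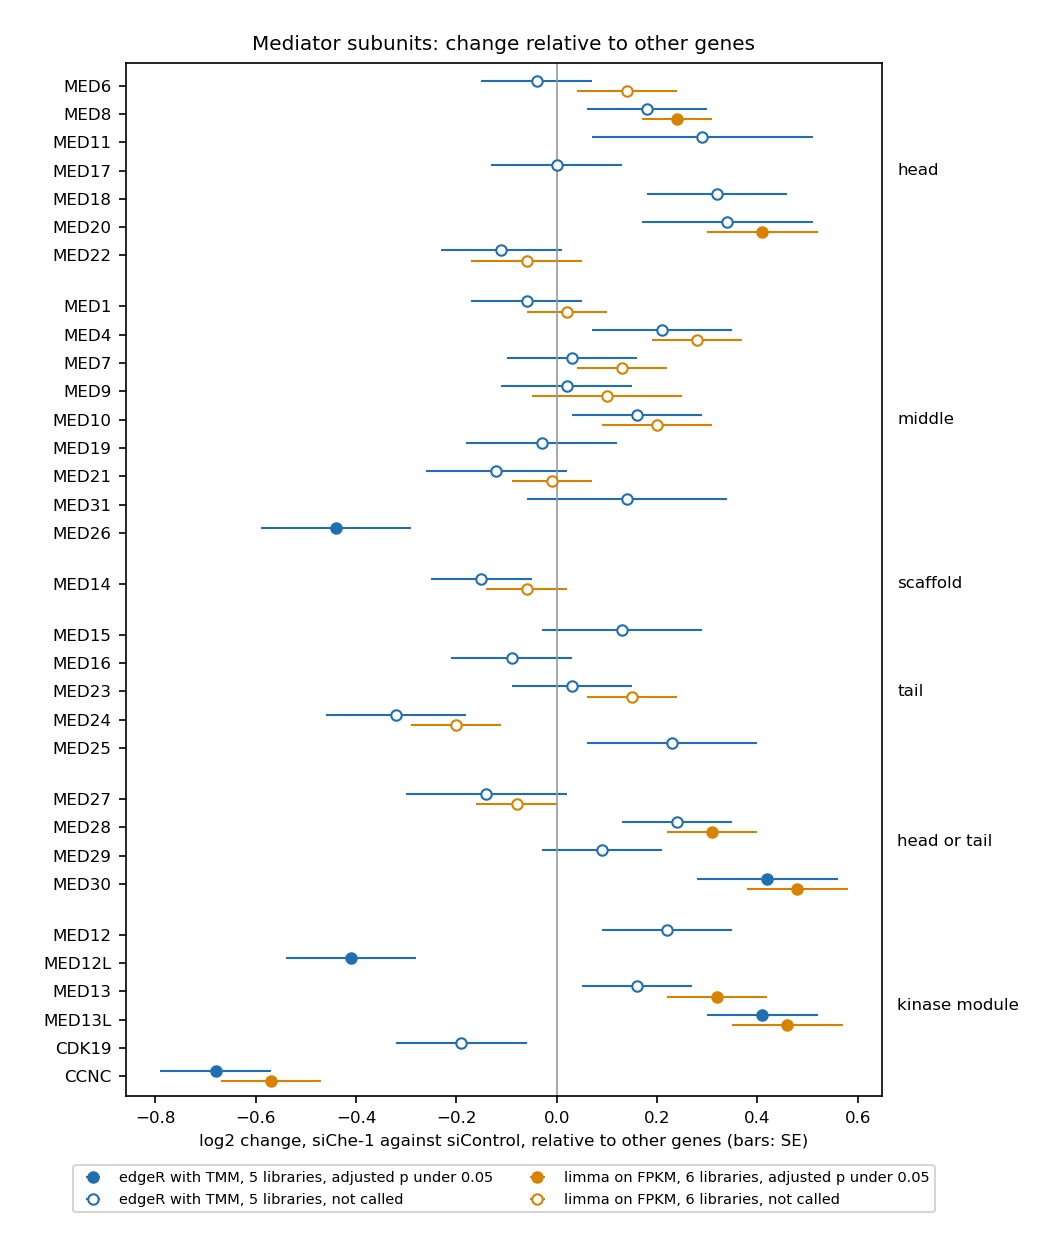
log2 change of 32 Mediator genes in siChe-1 against siControl relative to other genes, with bars of 1 SE. Blue points are edgeR with TMM on 5 libraries, orange points limma on FPKM of 6 libraries for the 19 genes above the minimum, and filled points passed an adjusted p of 0.05. CCNC is the lowest on both, at -0.68 and -0.57, and most genes lie within 0.3 of 0.

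CCNC, cyclin C, is the partner that activates CDK8 and CDK19. Its FPKM was 108, 97.0 and 91.6 in the siControl libraries and 71.6, 65.5 and 61.2 in the siChe-1 libraries, in the order of the deposited lists, which carry no replicate numbers. All siChe-1 values lay below all siControl values, 0.669 of the siControl mean (98.9 ± 8.39 against 66.1 ± 5.22, SD, n = 3). It fell by 0.57 ± 0.10 on the log2(FPKM + 1) scale (SE, limma adjusted p 0.00615). The TMM-normalized reads were 4306, 3828 and 4283 in siControl against 2454 and 2712 in siChe-1. edgeR's quasi-likelihood test gave -0.68 ± 0.11 (SE, adjusted p 0.000680), and this call held in all 10 alternatives, with adjusted p from 2.02e-07 to 0.0178. In the hg19 coordinates of the deposited table the gene spans 99990263 to 100016690 on the minus strand of chromosome 6.

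The deposited table splits CCNC into 2 transcripts. NM_005190 carried 80.5% of its siControl FPKM, at 76.6, 97.0 and 72.7 FPKM as deposited in siControl and 47.2, 61.6 and 52.9 in siChe-1. In the authors' deposited table its log2 ratio was -0.61 with a q of 0.0246. NM_001013399 was read at 35.0, 0.00849 and 24.7 in siControl against 21.2, 1.16 and 7.50 in siChe-1. Values that swing so far between libraries of a group, while NM_005190 swings the other way, leave the split between the 2 transcripts poorly determined, and the sum was used. With only the more abundant transcript the limma adjusted p of CCNC was 0.0641, the 1 of 12 alternatives in which the FPKM call was lost.

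Since the ratio of 2 genes within a library is free of its scaling, CCNC was set beside the other kinase-module genes. CCNC over MED13 was 1.64, 1.65 and 1.69 in siControl compared with 0.929, 0.961 and 0.782 in siChe-1. Cyclin C transcripts thus outnumbered those of MED13 per length in every siControl library and in no siChe-1 library. CCNC over MED12 went from 15.6 ± 1.62 to 8.37 ± 0.904, and over CDK19 from 16.9 ± 1.38 to 11.7 ± 1.37 (SD, n = 3). Against MED14 in the core it went from 7.45 ± 0.577 to 5.20 ± 0.437. None of the 4 ratios overlapped between the groups, and no test was run on them since CCNC was picked out by its own fall.

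MED13 and MED13L, alternative subunits that tether the kinase module to the core, stood higher relative to other genes while CCNC stood lower. MED13L was at 20.7, 23.6 and 17.7 FPKM in siControl and 28.4, 30.7 and 26.6 in siChe-1, 1.38 times the siControl mean. All 3 siChe-1 values lay above the siControl values. Its rise was 0.46 ± 0.11 on the log2(FPKM + 1) scale (SE, limma adjusted p 0.0201) and 0.41 ± 0.11 on the TMM scale (SE, edgeR adjusted p 0.0109). The TMM call was lost without either siChe-1 library or without siControl replicate 3, with an adjusted p of up to 0.0795. The limma call of MED13L was lost in 2 of 12 alternatives, with an adjusted p of up to 0.0579. MED13 was at 65.8, 59.0 and 54.1 FPKM in siControl and 77.1, 68.2 and 78.2 in siChe-1, again without overlap. limma gave 0.32 ± 0.10 (SE, adjusted p 0.0498), at the edge of the threshold and lost in 8 of 12 alternatives, and edgeR on TMM-normalized reads gave 0.16 ± 0.11 (SE, adjusted p 0.305), not called. Both genes were lower against the spike-ins, at -1.07 for MED13 and -0.83 for MED13L in the authors' deposited table.

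Promoter sequence is shown for the genes of the kinase module that were called in opposite directions on both relative scales, since it lets the 2 upstream regions be compared. Both windows are the 250 bases before a RefSeq start (build GRCh38.p14), 5′ to 3′ on the gene's strand, in lower case with motif matches in capitals, CCNC being chr6:99568661-99568910 (minus strand, the downstream of its listed starts) and MED13L chr12:116277694-116277943 (minus strand).
CCNC: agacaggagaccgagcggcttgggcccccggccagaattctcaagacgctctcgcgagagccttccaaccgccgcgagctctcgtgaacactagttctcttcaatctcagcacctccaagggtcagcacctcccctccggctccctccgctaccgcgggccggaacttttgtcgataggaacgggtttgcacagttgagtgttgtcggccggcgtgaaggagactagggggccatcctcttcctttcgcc
MED13L: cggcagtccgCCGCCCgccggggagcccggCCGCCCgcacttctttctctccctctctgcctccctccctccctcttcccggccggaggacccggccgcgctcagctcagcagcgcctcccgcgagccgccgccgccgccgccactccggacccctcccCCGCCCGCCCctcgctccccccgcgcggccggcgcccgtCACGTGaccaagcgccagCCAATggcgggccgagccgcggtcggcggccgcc

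The windows differed in composition. That of CCNC had 61.6% G and C and that of MED13L 81.2%, the highest of the 24 members with a window (median 58.8%, against 58.0% over 35116 RefSeq windows). Searched on both strands, MED13L held 4 matches to the GC box GGGCGG (2 of them overlapping by 2 bases), 1 to the E-box CACGTG and 1 to CCAAT. CCNC held none of the 7 motifs searched. The GC box was in 58.3% of member windows and 42.6% of all windows, CCAAT in 33.3% and 32.0%, the ETS motif CCGGAAG in 16.7% and 8.52%, and the NRF1 motif in 16.7% and 5.07%. TATAAA was in 4.17% and 10.7%, CACGTG in 4.17% and 6.34%, and the CRE motif TGACGTCA in 4.17% and 1.65%, each in 1 member window. Each member is counted with 1 window, at its start farthest downstream, while the 35116 windows include every listed start. The 2 sides of these comparisons are therefore not matched. These are matches of letters and not bound sites.

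MED12 activates the kinase, and MED12L is its paralog. On the TMM scale MED12L fell by 0.41 ± 0.13 (SE, edgeR adjusted p 0.0266), with 618, 575 and 550 TMM-normalized reads in siControl and 458 and 414 in siChe-1. That call was lost in 5 of 10 alternatives, with an adjusted p of up to 0.153. In FPKM, where the values were 2.19, 2.14 and 1.84 in siControl against 1.76, 1.55 and 1.94 in siChe-1, the groups overlapped. MED12 was at 6.18, 6.52 and 6.31 FPKM in siControl and 7.83, 7.62 and 8.30 in siChe-1, and edgeR gave 0.22 ± 0.13 on the TMM scale (SE, adjusted p 0.234), not called. That value rests on single libraries: it was -0.02 without siChe-1 replicate 1 and 0.43 without siChe-1 replicate 2 (edgeR adjusted p 0.940 and 0.0441). CDK19, the kinase itself, was at -0.19 ± 0.13 on that scale (SE, edgeR adjusted p 0.283), with 5.86 ± 0.0947 FPKM in siControl and 5.70 ± 0.567 in siChe-1. The deposited coordinates of MED12L, on the plus strand of chromosome 3 from 150804676 to 151176497 (hg19), are the same as those of GPR171 and P2RY14, listed on the opposite strand. No source used here says whether reads were counted by strand.

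The share of each paralog was compared per library. MED12 made up 73.9%, 75.3% and 77.4% of MED12 plus MED12L in siControl and 81.6%, 83.1% and 81.0% in siChe-1. The means were 75.5 ± 1.80% and 81.9 ± 1.06% (SD, n = 3), a difference of 6.37 percentage points with no overlap, higher in 3 of 3 siChe-1 libraries (exact permutation test, two-sided p = 0.1, adjusted p = 0.2 over 2 shares). MED13 made up 74.3 ± 2.53% of MED13 plus MED13L in siControl and 72.2 ± 2.93% in siChe-1 (exact permutation test, two-sided p = 0.5, adjusted p = 0.5), and the groups overlapped. With 3 libraries against 3 this test cannot go below 0.1, so neither share could pass.

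MED30, a metazoan subunit between head and tail, rose on both relative scales by about as much as MED13L. It was at 13.9, 15.7 and 17.0 FPKM in siControl and 22.9, 19.8 and 23.4 in siChe-1, 1.42 times the siControl mean. The rise was 0.48 ± 0.10 on the log2(FPKM + 1) scale (SE, limma adjusted p 0.0117) and 0.42 ± 0.14 on the TMM scale (SE, edgeR adjusted p 0.0411). TMM-normalized reads were 215, 242 and 245 against 313 and 316, so the groups did not overlap on either scale. The TMM call was lost in 5 of 10 alternatives, DESeq2 among them, with an adjusted p of up to 0.142, and the limma call in 1 of 12, at 0.0525. MED28, in the same region of the complex, was at 50.0, 50.5 and 43.8 FPKM in siControl and 59.6, 63.0 and 57.0 in siChe-1. It rose by 0.31 ± 0.09 (SE, limma adjusted p 0.0336), and 8 of 12 alternatives lost that call. MED27 (-0.08 ± 0.08, SE, limma adjusted p 0.516) and MED29, which was below the FPKM minimum, were not called.

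In the head, MED8 and MED20 were called on FPKM only. MED20, which pairs with MED18 in the movable jaw of the head, was at 19.4, 16.1 and 20.9 FPKM in siControl and 27.6, 22.9 and 25.2 in siChe-1. limma gave 0.41 ± 0.11 (SE, adjusted p 0.0303), a call lost in 7 of 12 alternatives, with an adjusted p of up to 0.105. TMM-normalized reads overlapped, at 1191, 872 and 1299 against 1662 and 1175, and edgeR gave 0.34 ± 0.17 (SE, adjusted p 0.154), not called. With the replicate number as a block, edgeR gave 0.46 ± 0.13 (SE, adjusted p 0.00386). That fit leaves 1 residual degree of freedom, and the values do not show whether the numbers pair the libraries. MED18 itself was at 5.35, 5.99 and 5.81 FPKM in siControl and 7.48, 7.97 and 6.94 in siChe-1, without overlap, and edgeR on the TMM scale gave 0.32 ± 0.14 (SE, adjusted p 0.109), not called. A second transcript, NM_001127350, was deposited at 0.148 FPKM or less in each siControl library and at 3.13, 2.96 and 1.33 in siChe-1, with a q of 0.441 in the authors' deposited table, while NM_017638 was at 5.84 ± 0.419 and 4.74 ± 0.752 FPKM (SD, n = 3). MED8, which anchors that jaw, was at 31.7, 32.6 and 34.1 FPKM in siControl and 39.8, 38.9 and 38.1 in siChe-1. Its rise of 0.24 ± 0.07 (SE, limma adjusted p 0.0339) was lost in 10 of 12 alternatives. MED6, MED11, MED17 and MED22, the rest of the head, were not called on either relative scale, with TMM values from -0.11 for MED22 to 0.29 for MED11.

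In the middle, MED26 was the single gene called. It fell by 0.44 ± 0.15 on the TMM scale (SE, edgeR adjusted p 0.0450), with 424, 364 and 381 TMM-normalized reads in siControl and 323 and 251 in siChe-1. Its FPKM was 4.15, 4.15 and 3.78 in siControl compared with 3.08, 3.50 and 3.47 in siChe-1, below the minimum and without overlap. In the authors' deposited table its transcript NM_004831 had a log2 ratio of -0.36 and a q of 0.0456, also close to the threshold. The TMM call was lost in 4 of 10 alternatives, with an adjusted p of up to 0.312. MED1, the subunit that binds nuclear receptors, was at 34.3 ± 1.55 FPKM in siControl and 34.7 ± 2.31 in siChe-1 (0.02 ± 0.08, SE, limma adjusted p 0.907). MED4 did not overlap between the groups in FPKM but was not called, at 0.28 ± 0.09 (SE, limma adjusted p 0.0528). MED7, MED9, MED10, MED19, MED21 and MED31 were not called, with TMM values between -0.12 and 0.16. The deposited span of MED31, like that of MED12L, is shared with other genes. These are KIAA0753 on the same strand and TXNDC17 on the opposite strand, and whether its reads include theirs was not tested.

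No gene of the tail was called relative to other genes, nor was MED14. MED24, which forms a subassembly with MED16 and MED23, was the lowest of them, at 24.0, 21.4 and 23.8 FPKM in siControl and 18.6, 19.3 and 22.0 in siChe-1. The groups overlapped, and limma gave -0.20 ± 0.09 (SE, adjusted p 0.125) and edgeR on the TMM scale -0.32 ± 0.14 (SE, adjusted p 0.0936). MED23 was at 0.15 ± 0.09 (SE, limma adjusted p 0.259), and MED15, MED16 and MED25, below the FPKM minimum, had TMM values of 0.13, -0.09 and 0.23. MED14 stood at 13.4, 14.1 and 12.3 FPKM in siControl and 12.6, 12.9 and 12.7 in siChe-1 (-0.06 ± 0.08, SE, limma adjusted p 0.651). By module, median TMM values were 0.18 for the head, 0.02 for the middle, 0.03 for the tail, 0.17 for the genes between head and tail and -0.02 for the kinase module. The kinase module was the widest, from -0.68 for CCNC to 0.41 for MED13L.

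**Figure D4:**
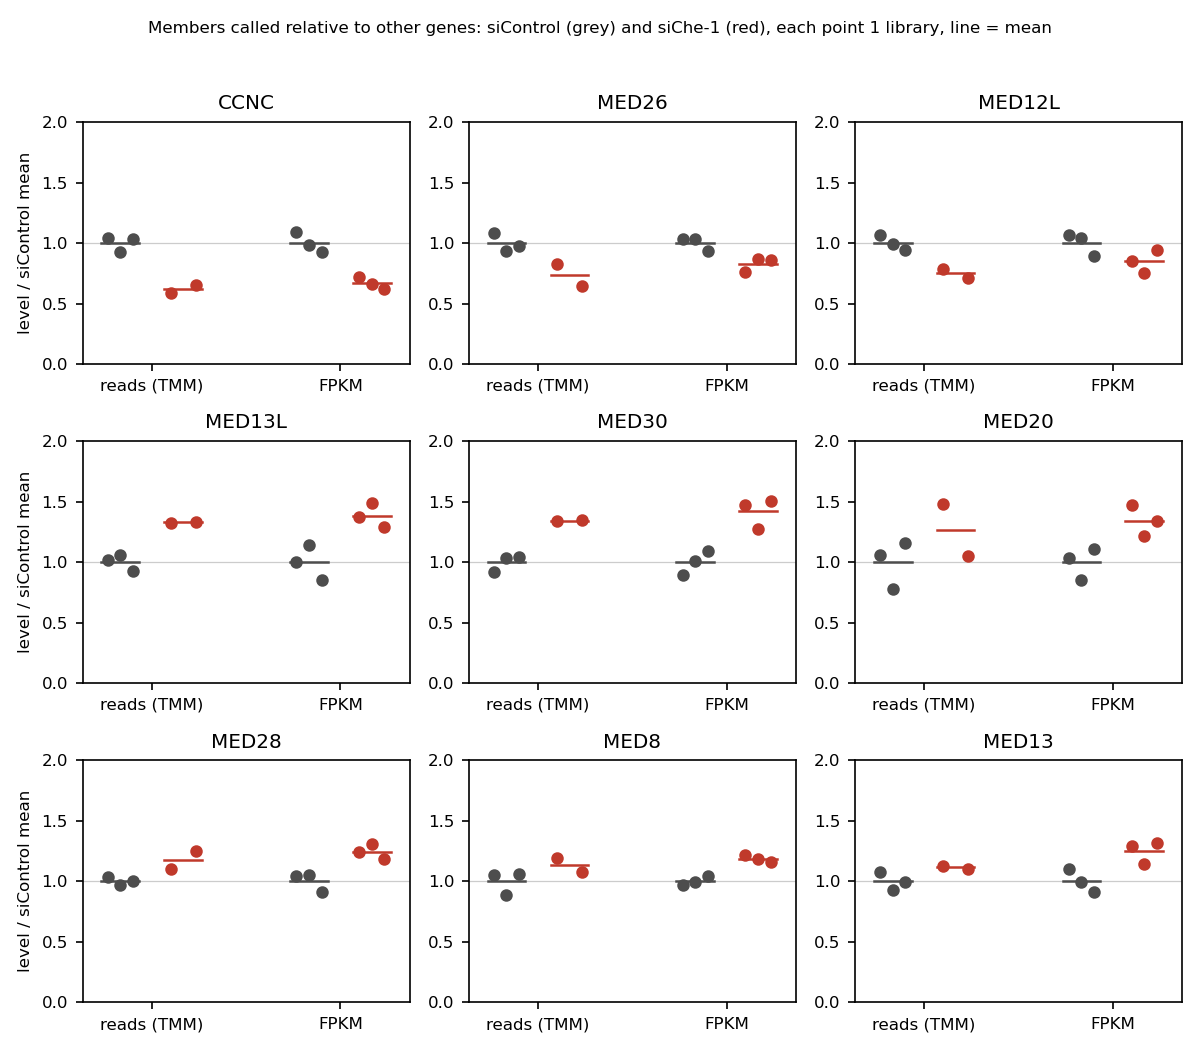
The 9 Mediator genes called on at least 1 relative scale, each library divided by the siControl mean of its scale, with grey points for siControl, red points for siChe-1 and lines for group means. The left pair in each panel is TMM-normalized reads (3 and 2 libraries) and the right pair FPKM (3 and 3). CCNC is below every control on both scales, MED13L and MED30 above every control on both, and the reads of MED20 overlap.

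Groups without overlap were common among all genes. On FPKM, 7 of the 19 tested members had all siChe-1 libraries above all siControl libraries and 1 had all below, beside 22.5% and 22.8% of all genes tested. With a minimum FPKM of 1 it was 10 of 32 above and 2 below, beside 26.4% and 17.9%. On TMM-normalized reads 6 of 32 were wholly above and 4 wholly below, beside 27.2% and 26.3% of all genes. Among the 41 transcripts of the members, the authors' deposited table gave a q under 0.05 for 2 lower (of CCNC and MED26) and 3 higher (of MED13L, MED20 and MED30), beside 10.2% lower and 8.05% higher of all transcripts.

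Partners of Mediator were taken from lists of other genes. RNA polymerase II subunits had a median of -0.14 on FPKM, and limma called 1 of 10 lower, POLR2G, at -0.32 ± 0.09 (SE, adjusted p 0.0311), beside 15.1% of all genes. edgeR on the TMM scale called 3 of 12 lower (POLR2G, POLR2H and POLR2I), beside 14.8% of all genes, and the authors' deposited table called 11 of 12 lower, beside 63.5%. For TFIIH, whose kinase CDK7 phosphorylates the polymerase tail, limma called 0 of 6 (1 at an unadjusted p under 0.05), edgeR with TMM called 2 of 10 lower (GTF2H1 and GTF2H2), and the authors' deposited table called 7 of 10 lower. These shares are near the 14.8% and 63.5% of all genes. Cohesin and its loader, which hold enhancers and promoters together with Mediator, had a median of 0.17 on FPKM. limma called 1 of 5 higher, the loader NIPBL, at 0.40 ± 0.10 (SE, adjusted p 0.0233), beside 15.1% of all genes. With a minimum FPKM of 1 NIPBL was not called (0.34 ± 0.12, SE, limma adjusted p 0.0726) and MAU2 was. edgeR with TMM called 2 of 7 higher (MAU2 and STAG2), beside 14.0% of all genes.

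Among elongation factors and co-regulators met by Mediator, limma called 1 of 11 higher, AFF4 of the super elongation complex, at 0.38 ± 0.09 (SE, adjusted p 0.0164). edgeR with TMM called 1 of 15 lower, SUPT4H1. Both counts are under the shares of all genes, 15.1% and 14.8%, and the list's medians were 0.10 on FPKM and 0.01 on the TMM scale. Of transcription factors known to bind Mediator or to be phosphorylated by its kinase, limma called 2 of 10 lower and 1 higher, beside 15.1% of all genes in each direction. SREBF1, a lipid regulator that meets MED15 and is a target of the kinase, fell by 0.54 ± 0.16 (SE, limma adjusted p 0.0373), CTNNB1 was the other that fell, and STAT3 rose by 0.29 ± 0.07 (SE, limma adjusted p 0.0204). With a minimum FPKM of 1 STAT3 was not called (0.23 ± 0.08, SE, limma adjusted p 0.0636). SREBF1, CTNNB1 and VDR were then called lower, of 16, beside 13.8% of all genes. edgeR with TMM called SREBF1, CTNNB1 and VDR lower and E2F1 higher, of 17, beside 14.8% and 14.0% of all genes. The authors' deposited table called 5 of 7 cohesin genes, 14 of 15 elongation factors and 12 of 17 transcription factors lower against the spike-ins and 0 higher, against the 63.5% of all genes.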

How the data were processed

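RNA sequencing libraries were made from ribosome-depleted total RNA (500 ng) with a stranded kit, per the labels' protocols. The submitters' processing notes name hg19, TopHat, HTSeq, DESeq2, Cufflinks and Cuffdiff without versions or roles.

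Per the file headers, the deposited tables hold raw counts of 92 spike-ins in 6 libraries; a signal per gene (the authors' reads divided by spike-in size factors, as group means) with their ratio (fold change), its log2, p-value and adjusted p; and FPKM of each transcript per library with the authors' log2 ratio, p and q. From the values, the signal comes from 5 libraries (siControl 1 to 3, siChe-1 1 and 2). Whole reads of these were recovered for 99.4% of its genes, 16342 of 16444, all 32 members included, to a relative tolerance of 8e-15; the other 102 genes hold 17.7% of normalized siControl reads.

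Genes with a mean of at least 10 were tested with edgeR 4.0.16 (quasi-likelihood) on spike-in and on TMM factors. FPKM of 6 libraries was summed by gene, filtered at a mean of at least 10, rescaled by the median of ratios, and tested as log2(FPKM + 1) with limma 3.58.1; folds on that scale understate changes of low genes. P-values were two-sided and Benjamini-Hochberg adjusted over all genes tested, with a threshold of 0.05. The design had named recovered reads as conditional on recovery, and its share of CDK8 was not computed. On simulated data edgeR with TMM made more false calls than its threshold allows, and limma did so for small changes; both missed many changes of the size seen here.

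Named genes are all members, with full statistics for those called on a relative scale and for the paralog pairs, and of each list of partners the called gene with the smallest p on FPKM in each direction; others called were named where there were 3 or fewer. Members and lists were chosen with earlier results of these data known. Deposited coordinates are printed counted from 1. Promoter windows are from RefSeq (GRCh38.p14) and matched 24 of 32 members. R 4.3.3 and DESeq2 1.42.0 (alternative) were used.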

Additional observations from a re-analysis of the deposited data

How the results depend on the processing

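The number of members called against the spike-ins in the authors' deposited table stayed at 24 with no minimum or with a minimum of 100 normalized reads. Of all genes, 8029 of 15719 and 7475 of 10141 were then called lower. edgeR on the spike-in scale called 32, and from 21 to 32 when a siControl library was left out. Genes called lower then numbered 8168 to 11646 of 12489, against 10528 with all 5 libraries. Without a siChe-1 library edgeR called fewer members, both on this scale and on TMM-normalized reads. Those fits leave 1 siChe-1 library, so their counts are not given. On TMM-normalized reads the 5 calls became 2, 6 and 1 without siControl replicates 1, 2 and 3. Calls among all 12489 genes went from 1753 higher and 1854 lower to 1327 and 1483, 1984 and 2155, and 1082 and 1162. DESeq2 gave 4 (1 higher, 3 lower), beside 1634 higher and 1856 lower of all genes. Upper-quartile factors gave 4 (3 higher, 1 lower), beside 2248 and 1426 of all genes, lost MED26 and MED12L and added MED28. On FPKM the 7 calls became 3 with the deposited scaling, 4 with a minimum FPKM of 1, 3 with none, 4 with the most abundant transcript alone, and 2 to 5 when a library was left out. Of all 6285 genes, 949 were called higher and 948 lower in the main fit, and 592 and 1279 with the deposited scaling. They were 1444 and 1490 of 10778 with a minimum of 1, and 1465 and 1579 of 12075 with none. The most abundant transcript gave 727 and 715 of 5835, and leaving out a library 495 to 837 and 507 to 870. The members' median of 0.14 became 0.05 with the deposited scaling, where the median of all genes was -0.09, 0.21 with upper-quartile scaling, where it was 0.06, 0.06 with a minimum of 1 and 0.05 with none. limma with a minimum FPKM of 1 called 2 RNA polymerase II subunits in place of 1, MAU2 in place of NIPBL, and VDR in place of STAT3. The share of MED12 rose by 5.54 to 7.32 percentage points, and that of MED13 changed by -3.53 to -0.450, when a library was left out. Of 804 alternatives for single members 656 left the call as it was, 142 lost it, 6 gained it and 0 reversed the direction of a call. The cause of these moves was not tested. The 804 alternatives include those of members not called in the main fit, which had no call to lose.

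Replicates 1 and 2 are shared by number between the groups. With the replicate number as a block, 1 residual degree of freedom is left on either scale. edgeR then called 0 members on the spike-in scale, beside 57 lower and 1 higher of all 12489 genes. On TMM-normalized reads it called 6 members, beside 1894 higher and 1977 lower of all genes. Over 12489 genes the deviations of same-numbered libraries correlated at 0.187 and 0.205 and those of crossed numbers at -0.187 and -0.205, which with 2 pairs are bound to mirror each other and so do not show whether the numbers pair the libraries. MED31 and MED11 had the fewest reads, 84 to 110 and 67 to 120 per library.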
